A study of Caenorhabditis elegans with 3 samples.

Results

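Aminoacyl-tRNA synthetases and translation factors carry out the steps that turn mRNA into protein. A synthetase joins an amino acid to its tRNA, and worms, like other animals, use separate enzymes for many amino acids in the cytosol and in the mitochondria. Initiation factors bring the ribosome, the mRNA cap and the first tRNA together, and elongation factors deliver the later tRNAs and move the ribosome along. In Caenorhabditis elegans several of these factors exist as paralogues, of which some are known for roles in the germ line, the tissue that makes sperm and oocytes.

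The genes described here are the 60 genes, of 15119 measured on all 3 arrays, whose symbols mark them as a synthetase (1 letter for the amino acid, then ars-1 or ars-2) or as a translation factor (eif-, ife-, ifg-, iff-, eef- or inf- followed by a number). They were picked by symbol alone, from array spots listed for a single gene. All 60 had a value on all 3 arrays, 57 of them from 1 spot, and there was no filter on low values. They comprised 28 synthetases and 32 factors. A further 13 genes with matching symbols had no spot of their own and were not analysed here, among them eef-1A.1, eif-3.C, ife-5, wars-1 and eif-2alpha.

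The series holds 3 arrays with 2 channels each. On each array, RNA from late L4 and young adult hermaphrodites, from prep 1, 2 or 3, was set against RNA of a mixed wild-type reference, per the labels, which name no mutation and no treatment. L4 is the last larval stage, at whose end the hermaphrodite gonad turns from sperm to oocytes. Values are log2 ratios between the channels. A positive value was taken as a higher level in the staged RNA, because that RNA is channel 2 on every array, but the labels do not state the direction, and with the opposite one every higher and lower would turn. No array has the channels swapped, and each prep has 1 array with its own date in its label, so the channel cannot be told apart from the stage, nor the date from the prep. Whether the preps were grown as separate cultures is not stated. The p-values therefore rest on the spread among 3 preps alone, and that spread may be technical. The reference is a mixture whose composition is not given in the sources used here, so a ratio shows a level relative to that mixture. In whole animals, more cells of a type and more RNA per cell cannot be told apart.

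The stage was checked on marker genes. All 30 major sperm protein genes but 1 were called higher, the adult cuticle collagens col-7, col-19 and col-62 were all called higher, and 0 of 4 male genes and 0 of 3 yolk genes passed limma's test, also at an unadjusted p under 0.05. Of 6 germ line markers 5 were called higher, with list medians of 2.26, 1.56 and 1.32 in preps 1, 2 and 3. The 7 oocyte markers differed more between the preps, with medians of 1.86, 0.44 and -0.10. Of 5 early embryonic genes 2 were called lower and none higher. Prep 1 thus stood apart in its oocyte markers. Between pairs of arrays, Pearson's r of the log2 ratios was 0.65 to 0.68 across all genes and 0.42 to 0.64 across the 60 members, and genes are not independent replicates.

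Many of the synthetase and factor genes were higher in the staged animals than in the reference, and none were called lower. Of the 60, 22 were called higher (limma, adjusted p under the threshold of 0.05), which is 36.7%, against 11.3% of all genes tested. No member was called lower, against 9.37% of all genes, and 0 were lower at an unadjusted p under 0.05, where 34 were higher. At that unadjusted threshold 5092 of all 15119 genes passed, counting both directions. On all 3 arrays 38 members lay above 0, against 24.9% of all genes, and 2 lay below 0, against 28.1%. A mean log2 ratio of at least 1 was reached by 13 members, against 8.70% of all genes. The list's median was 0.93, 0.37 and 0.42 (preps 1, 2 and 3), averaging 0.57 ± 0.31 (SD, n = 3), or 1.49-fold. The median of all genes was 0.044, -0.094 and -0.062 on the same arrays. The means of the 60 ran from -0.42 for eif-2Bbeta to 1.74 for inf-1.

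**Figure D1:**
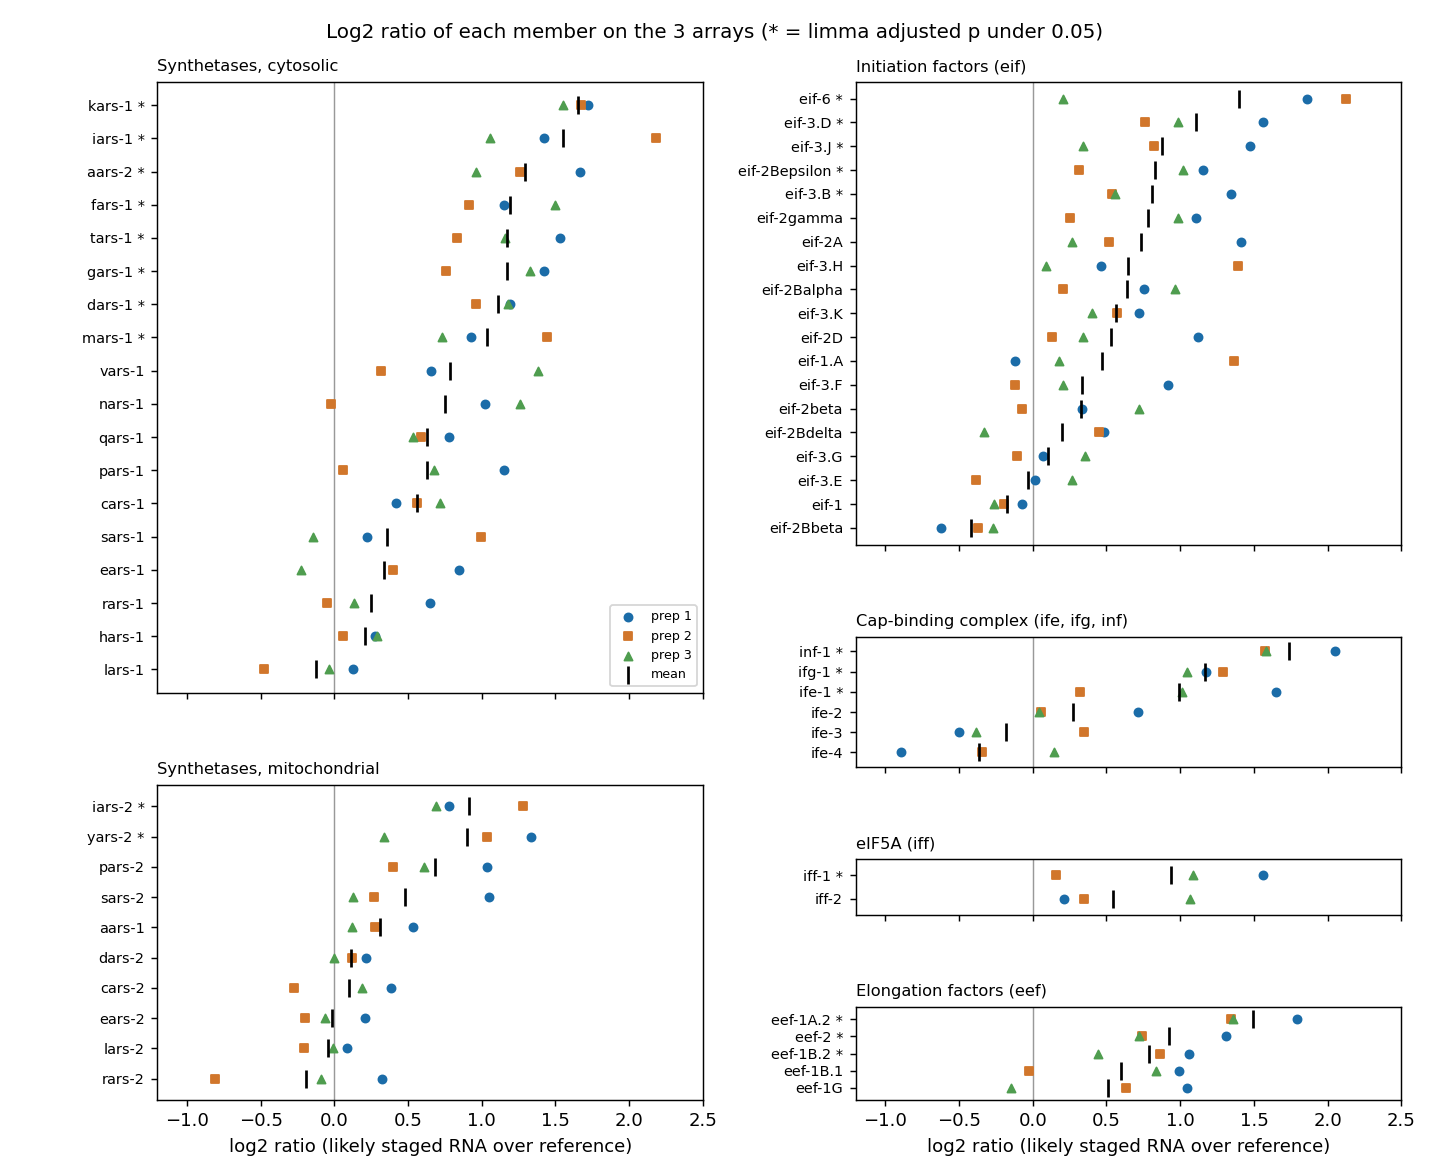
Log2 ratio (x axis) of each of the 60 genes (y axis) in prep 1 (circles), prep 2 (squares) and prep 3 (triangles), with the mean of the 3 arrays as a vertical bar and an asterisk at the 22 genes called higher. Cytosolic synthetases sit mostly right of 0, mitochondrial ones lie closer to it, and the means run from -0.42 for eif-2Bbeta to 1.74 for inf-1.

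Prep 1 gave the highest of the 3 values for 39 of the 60 members (65.0%), against 37.9% of all genes. Prep 1 was also highest for 6 of the 7 oocyte markers and 5 of the 6 germ line markers, and the part of oocyte or germ line RNA in the members' values was not tested. Without prep 1 the members' median was 0.40, and 8 members were called higher, all of them among the 22, against 7.24% of all genes. Without prep 2 the median was 0.67 with 18 called (9.12% of all genes), and without prep 3 it was 0.65 with 20 called (10.6%). Leaving out a prep also leaves fewer arrays and less power. Over all genes, calls in both directions fell from 3126 to 1759 without prep 1, 2547 without prep 2 and 2904 without prep 3. Some calls were lost although the mean rose, as without prep 1 for iars-2 (0.92 to 0.99) and mars-1 (1.03 to 1.09). How much of each loss came from lower power was not tested. With a variance trend in limma's eBayes 14 were called (9.41% of all genes). This trend was fitted on each gene's mean absolute log2 ratio, not on its intensity, which was not available. The 8 calls lost with it were those of iff-1, eef-2, iars-2, yars-2, eif-3.J, eif-2Bepsilon, eif-3.B and eef-1B.2. With array weights 18 were called (11.6%), without iff-1, eif-3.J, eif-2Bepsilon and eif-3.B. The 8 called whichever prep was left out were inf-1, kars-1, iars-1, eef-1A.2, aars-2, fars-1, ifg-1 and dars-1.

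Among the subgroups used here, cytosolic synthetases held the most called genes by count, but not the largest share. The share called was larger in smaller groups, at 60% of 5 elongation factors, 50% of 6 cap-binding genes and 50% of 2 iff- genes. Taken whole, 12 of the 32 factors (37.5%) and 10 of the 28 synthetases (35.7%) were called higher. The C. elegans synthetase genes numbered 1 were taken as cytosolic, or as serving both compartments, and those numbered 2 as mitochondrial, with aars-2 and aars-1 the other way round. Of 18 cytosolic synthetases, 8 were higher (44.4%, against 11.3% of all genes) and 10 did not pass, and 13 lay above 0 on all arrays. The group's median was 0.98, 0.67 and 0.85 (preps 1, 2 and 3), averaging 0.83 ± 0.15 or 1.78-fold. In this group 5 genes were called without prep 1 (27.8%), 9 without prep 2 (50%) and 8 without prep 3 (44.4%). The shares of all genes were 7.24%, 9.12% and 10.6%.

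The lysyl-tRNA synthetase gene kars-1 (sequence name T02G5.9) stood at 1.72, 1.68 and 1.55, a mean of 1.65 ± 0.085, which is 3.14-fold (limma adjusted p = 6.91e-04). The isoleucyl-tRNA synthetase gene iars-1 stood at 1.43, 2.18 and 1.05, a mean of 1.55 ± 0.58 or 2.94-fold (limma adjusted p = 0.00232). The alanyl-tRNA synthetase gene aars-2 stood at 1.67, 1.26 and 0.96, a mean of 1.30 ± 0.35 (limma adjusted p = 0.00409). The values of kars-1 lay closer together than those of any other member, while iars-1 was highest in prep 2. The gene fars-1, for the alpha subunit of the phenylalanyl enzyme, stood at 1.15, 0.91 and 1.50, a mean of 1.19 ± 0.29 (limma adjusted p = 0.00614). Its partner fars-3, for the beta subunit, falls outside the symbol rule and stood at 1.19, 0.50 and 0.71, a mean of 0.80 ± 0.35 (limma adjusted p = 0.0448). Both subunits were thus above 0 on every array, with fars-1 the higher of them in preps 2 and 3. The call of fars-3 was lost without prep 1 (0.61), prep 2 (0.95) or prep 3 (0.84), and with the variance trend or array weights.

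The threonyl and glycyl enzymes followed at nearly the same mean. The gene tars-1 stood at 1.53, 0.83 and 1.16, a mean of 1.17 ± 0.35 (limma adjusted p = 0.00722), and gars-1 at 1.42, 0.76 and 1.33, a mean of 1.17 ± 0.36 (limma adjusted p = 0.00744). Both were lowest in prep 2, and both calls were lost without prep 1, at 0.99 (adjusted p = 0.0535) and 1.04 (adjusted p = 0.0534). The aspartyl gene dars-1 stood at 1.19, 0.96 and 1.18, a mean of 1.11 ± 0.13 (limma adjusted p = 0.00730). The methionyl gene mars-1 stood at 0.93, 1.44 and 0.73, a mean of 1.03 ± 0.37 (limma adjusted p = 0.0144). The arrays were close for dars-1, whereas mars-1 was highest in prep 2 and lost its call without prep 1 (1.09, adjusted p = 0.0527) or prep 2 (0.83, adjusted p = 0.104).

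The 10 cytosolic synthetases that did not pass ran from vars-1 at 0.78 ± 0.54 and nars-1 at 0.75 ± 0.68, for valine and asparagine, down to lars-1, for leucine, at -0.13 ± 0.31. Of these, qars-1 (glutamine) at 0.63 ± 0.13 and cars-1 (cysteine) at 0.56 ± 0.15 had close arrays and lay above 0 on each, while pars-1 (proline) at 0.63 ± 0.55 ranged from 0.058 to 1.15. The genes sars-1, ears-1, rars-1 and hars-1, for serine, glutamate, arginine and histidine, stood between 0.21 and 0.36. The gene lars-1 was thus the lowest of the 18, although iars-1, whose enzyme handles an isomer of leucine, was near the top.

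Mitochondrial synthetases lay closer to the reference. Of 10, 2 were higher (20%, against 11.3% of all genes) and 8 did not pass, and 5 lay above 0 on all arrays. The group's median was 0.46, 0.20 and 0.12 (preps 1, 2 and 3), averaging 0.26 ± 0.18 or 1.20-fold. The median was thus below that of the cytosolic group on each of the 3 arrays, but the difference between the groups was not tested. The isoleucyl gene iars-2 stood at 0.78, 1.28 and 0.69, a mean of 0.92 ± 0.32 (limma adjusted p = 0.0241). The tyrosyl gene yars-2 stood at 1.33, 1.04 and 0.34, a mean of 0.90 ± 0.51 (limma adjusted p = 0.0349). Both calls were lost with prep 1 or prep 2 left out. Without prep 1, iars-2 was at 0.99 and yars-2 at 0.69, without prep 2 they were at 0.73 and 0.83, and neither passed. With each array centred within print blocks, which are runs of consecutive probe numbers inferred from the values and not stated, they were at 0.75 and 0.73 and did not pass either, nor did they with the variance trend.

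The other 8 mitochondrial synthetases ranged from pars-2 at 0.68 ± 0.33, the mean of 2 spots that stood at 0.63 and 0.73, to rars-2 at -0.19 ± 0.57. The arginyl gene rars-2 stood at 0.33, -0.81 and -0.088, so its sign differed between the arrays. In between, dars-2 at 0.11 ± 0.11, cars-2 at 0.098 ± 0.34, ears-2 at -0.017 ± 0.21 and lars-2 at -0.041 ± 0.15 lay near 0. Compartments were taken from the gene numbers and could not be checked in the files, least of all for vars-1 and yars-2, since glp-4 is also known to encode a valyl-tRNA synthetase. Without vars-1 the cytosolic median was 0.84, with 8 of 17 called higher (47.1%). Without yars-2 the mitochondrial median was 0.21, with 1 of 9 called higher (11.1%), a share near the 11.3% of all genes. The gene glp-4 itself stood at 0.44, 0.36 and 0.76 and did not pass.

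For 9 amino acids both synthetases were measured, so that the cytosolic and the mitochondrial gene can be set against each other within an array. The cytosolic gene had the higher log2 ratio on all 3 arrays in 5 of the 9 pairs, and on the mean in 6. The difference was 0.97, 0.84 and 1.18 for dars-1 minus dars-2, a mean of 1.00 ± 0.17. It was 1.13, 0.99 and 0.84 for aars-2 minus aars-1, a mean of 0.99 ± 0.15. For iars-1 minus iars-2 it was 0.65, 0.90 and 0.36, a mean of 0.64 ± 0.27, although both genes were called higher. In the aspartyl, alanyl and isoleucyl pairs even the smallest differences, 0.84, 0.84 and 0.36, were larger than the SDs. The pairs for cysteine and arginine differed by 0.46 ± 0.40 and 0.44 ± 0.28. The glutamyl pair differed by 0.63, 0.60 and -0.16, a mean of 0.36 ± 0.45. The leucyl, prolyl and seryl pairs had mean differences of -0.085 ± 0.16, -0.052 ± 0.25 and -0.13 ± 0.78, with signs that varied between the arrays. With 3 arrays an exact sign-flip test cannot go below p = 0.25, so these differences are descriptions. With print-block centring the differences were 0.67 for aspartate, 1.14 for alanine and 1.02 for isoleucine.

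**Figure D2:**
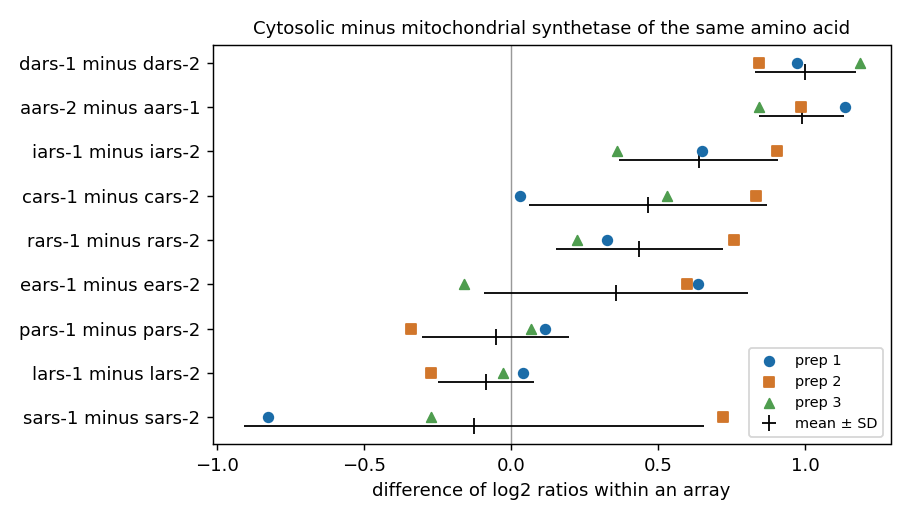
Difference of log2 ratios within each array (x axis), cytosolic minus mitochondrial synthetase of the same amino acid, for 9 pairs (y axis) in preps 1 (circles), 2 (squares) and 3 (triangles), with the mean ± SD below. The pairs for aspartate and alanine lie near 1 on every array, and those for proline, leucine and serine straddle 0.

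Initiation begins when the cap-binding complex finds the mRNA, and 3 of its 6 measured genes were higher (50%, against 11.3% of all genes). The gene inf-1 (sequence name F57B9.6), which encodes the RNA helicase eIF4A, had the highest mean of all 60. It stood at 2.05, 1.57 and 1.58, a mean of 1.74 ± 0.27 or 3.33-fold (limma adjusted p = 6.27e-04). Of all genes tested, 97.1% had a lower mean. The scaffold gene ifg-1, for eIF4G, which binds the helicase and the cap-binding protein, stood at 1.17, 1.29 and 1.05, a mean of 1.17 ± 0.12 or 2.25-fold (limma adjusted p = 0.00552). Both inf-1 and ifg-1 stayed far above 0 on every array, with values no lower than 1.05.

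The genes for the cap-binding protein eIF4E itself, ife-1 to ife-4, differed among themselves. The gene ife-1, whose product is associated with the P granules of germ cells and is needed for sperm formation, stood at 1.65, 0.32 and 1.01, a mean of 1.00 ± 0.67 (limma adjusted p = 0.0307). Without prep 1 it was at 0.67 and not called. The other 3 did not pass. The gene ife-2, known from somatic tissue, stood at 0.71, 0.057 and 0.045, a mean of 0.27 ± 0.38. The gene ife-3, the one closest to the main mammalian eIF4E, stood at -0.50, 0.35 and -0.38, a mean of -0.18 ± 0.46. The gene ife-4 stood at -0.89, -0.34 and 0.15, a mean of -0.36 ± 0.52. In order of mean these are ife-1, ife-2, ife-3 and ife-4, and ife-3 and ife-4 differ by less than either SD. The gap between ife-2 and ife-3 exceeds the SD of ife-2 but not that of ife-3. On every array ife-1 had a higher log2 ratio than ife-2, by 0.94, 0.27 and 0.97, a mean of 0.72 ± 0.40, and than ife-4, by 2.54, 0.66 and 0.86, a mean of 1.36 ± 1.03. The comparisons had placed ife-3 on the same side as ife-1, against ife-2 and ife-4. By contrast with ife-1, ife-3 minus ife-2 was -1.21, 0.29 and -0.43. The difference of ife-3 minus ife-4 was 0.39, 0.69 and -0.53, so that the arrays gave no single sign. A germ line or soma pattern over the ife- genes was not tested. With print-block centring ife-2 stood at 0.64 and ife-3 at 0.062, and ife-1 minus ife-2 shrank to 0.39. Without prep 1, ife-1 minus ife-4 was 0.76.

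The larger group of eif- genes was mixed. Of 19 measured, 5 were higher (26.3%, against 11.3% of all genes) and 14 did not pass. The group medians were 0.76, 0.32 and 0.34 (preps 1, 2 and 3), averaging 0.47 ± 0.25. Without prep 1 limma called 0 of the 19, of which 2 were higher at an unadjusted p under 0.05. There, 4128 of all 15129 genes passed that threshold, counting both directions. The highest was eif-6, whose product keeps the large ribosomal subunit from joining the small one too early, at 1.86, 2.12 and 0.21, a mean of 1.40 ± 1.04 (limma adjusted p = 0.0152). Prep 3 was thus far below the other two, and the SD was the largest among the 60. A further spot of eif-6 had no value on any array. The call was lost without prep 1 (1.17) or prep 2 (1.03).

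The eIF3 complex, the largest initiation factor, holds the small ribosomal subunit ready for the mRNA. Of its 8 measured genes 3 were higher (37.5%, against 11.3% of all genes). The gene eif-3.D stood at 1.56, 0.76 and 0.98, a mean of 1.10 ± 0.41 (limma adjusted p = 0.0113), and was not called without prep 1 (0.87). The gene eif-3.J, for a loosely bound subunit, stood at 1.47, 0.83 and 0.34 as the mean of 2 spots, which gives 0.88 ± 0.57 (limma adjusted p = 0.0429). Its 2 spots stood at 0.98 and 0.77, so they differed by less than the arrays did. The gene eif-3.B stood at 1.34, 0.54 and 0.55, a mean of 0.81 ± 0.46 (limma adjusted p = 0.0495). For eif-3.J the call was lost without prep 1 (0.58) or prep 2 (0.91), and for eif-3.B without any of the preps (0.54, 0.95 and 0.94), and both calls were lost with the variance trend and with array weights. The remaining eIF3 genes ran from eif-3.H at 0.65 ± 0.67 and eif-3.K at 0.56 ± 0.16 to eif-3.F at 0.34 ± 0.53, eif-3.G at 0.11 ± 0.23 and eif-3.E at -0.035 ± 0.33. Subunits of 1 complex thus spanned from -0.035 to 1.10 on the mean.

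The factor eIF2 carries the first tRNA to the ribosome, and eIF2B recharges it with GTP. Of the 8 genes with symbols that start with eif-2, 1 was higher (12.5%), a share near the 11.3% of all genes. These 8 were grouped by symbol, whether or not their products are subunits of eIF2 or eIF2B. The gene eif-2Bepsilon, for the catalytic subunit of eIF2B, stood at 1.16, 0.32 and 1.02, a mean of 0.83 ± 0.45 (limma adjusted p = 0.0444), and lost its call without prep 1 (0.67) or prep 3 (0.74), with the variance trend and with array weights. Another eIF2B subunit gene, eif-2Bbeta, was the lowest of all 60 at -0.62, -0.37 and -0.27, a mean of -0.42 ± 0.18, below 0 on each array but not called (limma adjusted p = 0.259). These 2 subunit genes thus had opposite signs on every array. The others were eif-2gamma at 0.78 ± 0.46 (limma adjusted p = 0.0562), eif-2A at 0.73 ± 0.60, eif-2Balpha at 0.64 ± 0.40, eif-2D at 0.53 ± 0.52, eif-2beta at 0.33 ± 0.40 and eif-2Bdelta at 0.20 ± 0.46. Of the factors that help scan for the start codon, eif-1 stood at -0.0725, -0.20 and -0.26, a mean of -0.18 ± 0.096 that did not pass. The gene eif-1.A stood at -0.12, 1.36 and 0.18, so its mean of 0.47 ± 0.79 came mostly from prep 2.

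Elongation factors were above 0 on the mean in every case. Of 5 measured, 3 were higher (60%, against 11.3% of all genes) and 2 did not pass. The group medians were 1.06, 0.74 and 0.72, a mean of 0.84 ± 0.19. The gene eef-1A.2, for the factor that brings charged tRNAs to the ribosome, stood at 1.79, 1.34 and 1.36, a mean of 1.50 ± 0.26 or 2.82-fold (limma adjusted p = 0.00147). This value is uncertain, because eef-1A.2 has a near-identical copy, eef-1A.1. A spot listed for both genes, which was not in the test, stood at 0.43, -0.34 and -0.42, a mean of -0.11 ± 0.47. The spots thus differed by more than 1 on every array.

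The translocation factor gene eef-2 stood at 1.31, 0.74 and 0.72, a mean of 0.92 ± 0.34 (limma adjusted p = 0.0238), and was not called without prep 1 (0.73) or with the variance trend. Of the exchange factors that recharge eEF1A, eef-1B.2 stood at 1.06, 0.87 and 0.45, a mean of 0.79 ± 0.31 (limma adjusted p = 0.0449), and was not called without prep 1 (0.66), without prep 2 (0.75) or with the variance trend. The other exchange factor genes did not pass. They were eef-1B.1 at 0.99, -0.025 and 0.83, a mean of 0.60 ± 0.55, and eef-1G at 1.04, 0.63 and -0.14, a mean of 0.51 ± 0.60. Prep 1 was the highest array for all 5 of these genes.

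The pair iff-1 and iff-2 encodes eIF5A, which helps the ribosome through difficult peptide bonds. The gene iff-1, known for its role in germ cell proliferation, stood at 1.56, 0.16 and 1.09, a mean of 0.94 ± 0.72 (limma adjusted p = 0.0439), and lost its call without prep 1 (0.62) or prep 3 (0.86), with the variance trend and with array weights. The gene iff-2, known from the soma, stood at 0.21, 0.35 and 1.07, a mean of 0.54 ± 0.46, and did not pass. The difference of iff-1 minus iff-2 was 1.35, -0.19 and 0.022 (preps 1, 2 and 3), averaging 0.39 ± 0.84, so of the 3 arrays only prep 1 set the pair far apart.

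**Figure D3:**
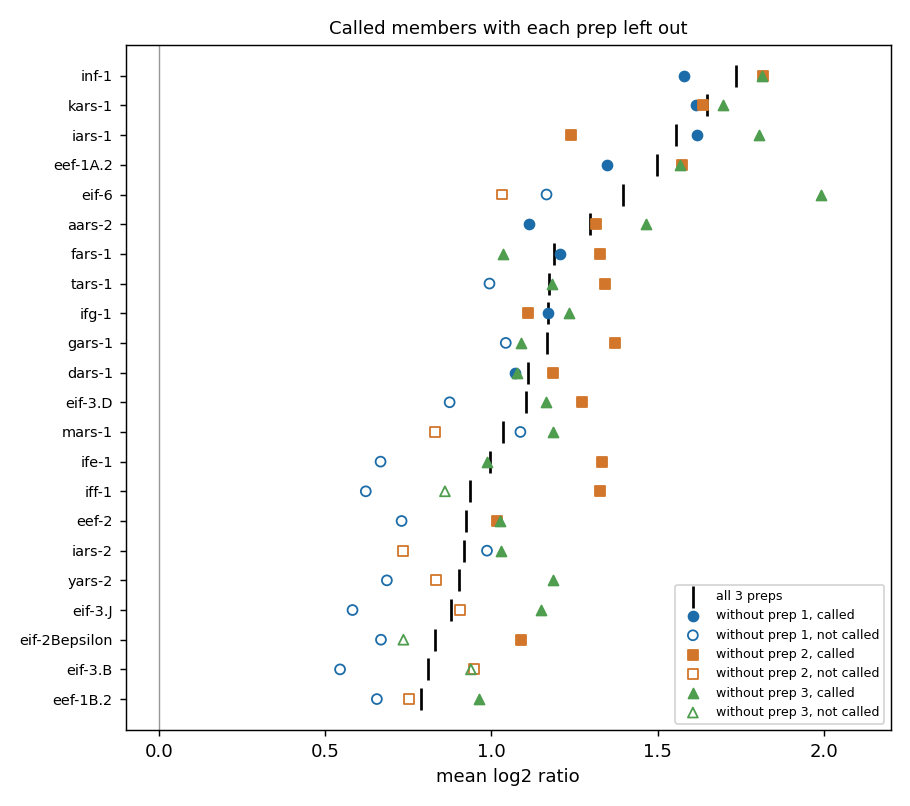
Mean log2 ratio (x axis) of the 22 called genes (y axis) over all 3 preps (vertical bars) and with prep 1 (circles), prep 2 (squares) or prep 3 (triangles) left out, filled where the gene was still called. Leaving out prep 1 ended 14 of the 22 calls, prep 2 ended 7 and prep 3 ended 3.

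Other genes of protein synthesis, listed by function, lie outside the symbol rule. Of 27 listed, 22 were measured, with 7 called higher (31.8%, against 11.3% of all genes) and 13 that missed the threshold. The other 2 were called lower (9.09%), a share near the 9.37% of all genes. Without prep 1 only 2 were called higher, a share of 9.09% against 7.24% of all genes. Without prep 2 it was 4 (18.2% against 9.12%), and without prep 3 it was 6 (27.3% against 10.6%). Their medians were 0.47, 0.30 and 0.21 in preps 1, 2 and 3. The release factor genes erfa-3 and erfa-1, whose products end translation at the stop codon, were highest. They stood at 1.29, 1.77 and 1.27, a mean of 1.44 ± 0.29 (limma adjusted p = 0.00195), and at 1.13, 1.25 and 0.95, a mean of 1.11 ± 0.16 (limma adjusted p = 0.00754). Both were called whichever prep was left out.

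The lowest was efk-1, for the kinase that inactivates the elongation factor eEF2. It stood at -1.57, -2.40 and -2.24, a mean of -2.07 ± 0.44, which is 4.20-fold lower (limma adjusted p = 2.77e-04), and was called whichever prep was left out. On each array its target gene eef-2 was above 0. The other lower gene was pek-1, for a kinase of eIF2 that acts under stress of the endoplasmic reticulum, at -0.77, -1.10 and -0.96, a mean of -0.94 ± 0.16 (limma adjusted p = 0.0175). Its call was lost without prep 2 (-0.87) or prep 3 (-0.94) and with the variance trend. A further kinase of eIF2, gcn-2, which responds to uncharged tRNA, was higher instead, at 0.83, 0.71 and 1.59, a mean of 1.04 ± 0.48 (limma adjusted p = 0.0169), though not without prep 1 (1.15) or prep 3 (0.77).

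The poly(A)-binding protein gene pab-1 stood at 1.11, 0.78 and 0.85, a mean of 0.91 ± 0.18 (limma adjusted p = 0.0208), and tufm-2, named for the mitochondrial elongation factor Tu, at 1.23, 0.28 and 1.36, a mean of 0.96 ± 0.59 (limma adjusted p = 0.0312). The RNA-binding protein gene larp-1 stood at 1.03, 1.55 and 0.15, a mean of 0.91 ± 0.71 (limma adjusted p = 0.0491). Their calls were also lost with single preps left out. Without prep 1, pab-1 was at 0.81, tufm-2 at 0.82 and larp-1 at 0.85, and none passed. Without prep 2, pab-1 at 0.98 and larp-1 at 0.59 did not pass, and without prep 3, tufm-2 at 0.75 did not. The call of pab-1 was also lost with the variance trend, and that of larp-1 with the trend, with print-block centring (0.94, adjusted p = 0.0812) and with each array centred on its median.

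**Figure D4:**
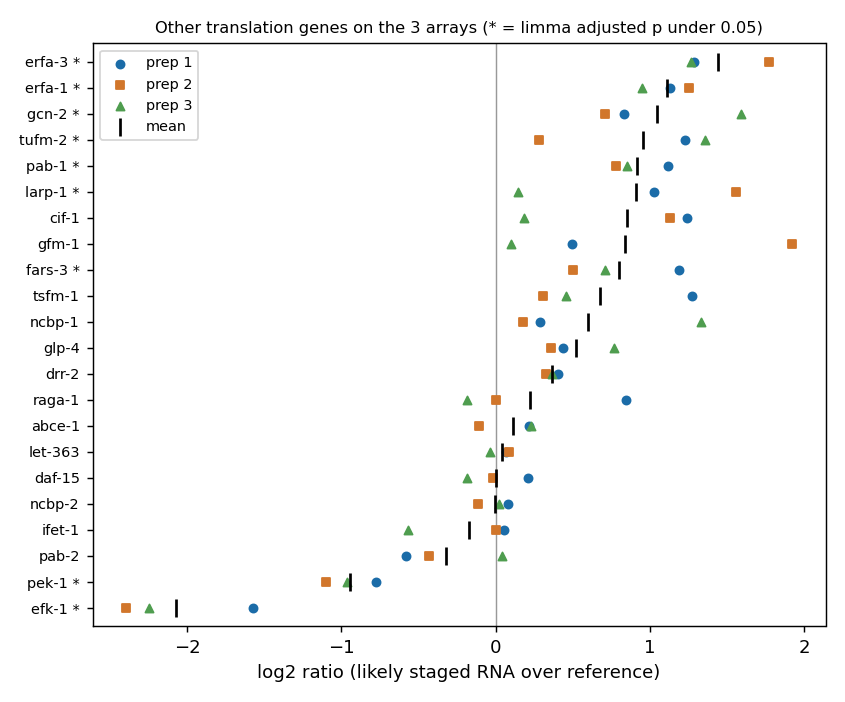
Log2 ratio (x axis) of 22 other translation genes (y axis) in preps 1 (circles), 2 (squares) and 3 (triangles), with means as vertical bars and asterisks at called genes. The release factor genes erfa-3 and erfa-1 are highest, and the kinase genes pek-1 and efk-1 lie below 0 on every array.

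Ribosomal protein genes, which build the machine that these factors serve, give a comparison. Of 63 cytosolic ones 20 were called higher (31.7%, against 11.3% of all genes) and none lower by limma, also at an unadjusted p under 0.05, with medians of 0.98, 0.47 and 0.56 in preps 1, 2 and 3. Of 45 mitochondrial ones 9 were called higher (20%) and 1 lower, with medians of 0.58, 0.075 and 0.52. These counts fell with a prep left out, where fewer arrays also left the test less power. Without prep 1 the cytosolic count was 4 (6.35%) and the mitochondrial count 1 (2.22%), both shares below the 7.24% of all genes. Without prep 2 the counts were 9 (14.3%) and 6 (13.3%), against 9.12% of all genes. Without prep 3 they were 19 (30.2%) and 4 (8.89%), against 10.6% of all genes, so the mitochondrial share again lay below. The synthetases gave 44.4% for the cytosolic and 20% for the mitochondrial group, of 18 and 10 genes. Without yars-2, whose compartment is unsure, the mitochondrial share was 11.1%. In the ribosomal lists, too, the cytosolic median lay above the mitochondrial one on each array, by little in prep 3. None of these differences between lists was tested.

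**Figure D5:**
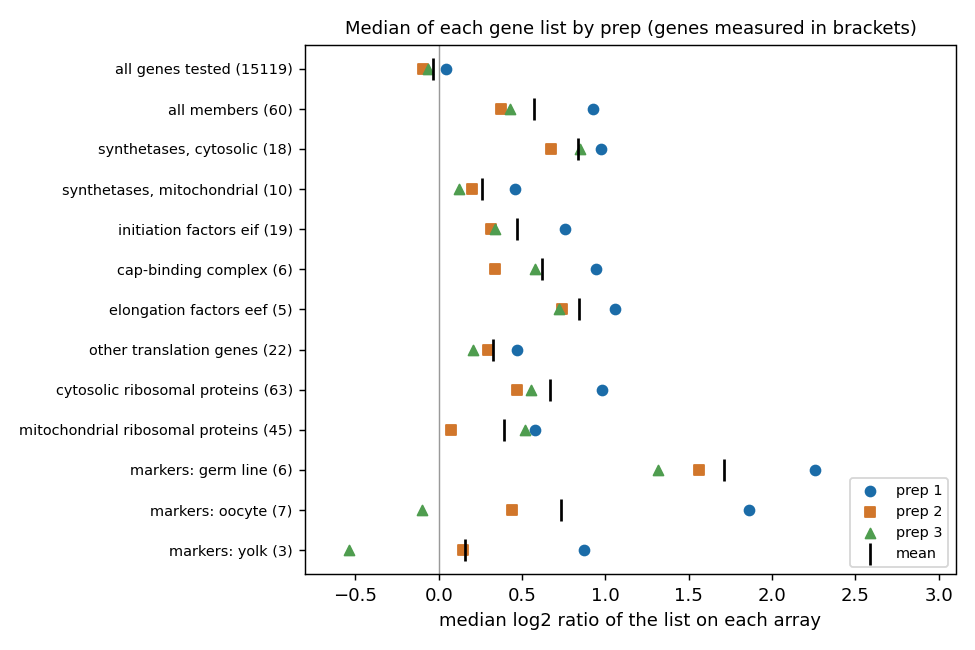
Median log2 ratio (x axis) of each gene list (y axis, genes measured in brackets) in preps 1 (circles), 2 (squares) and 3 (triangles), with the mean of the arrays as a vertical bar. The lists of translation genes shown lie right of the median of all genes on each array, and prep 1 is highest in each list shown. Lists with another prep highest are not plotted. Prep 3 was highest for the sperm, adult cuticle and male markers and the pair iff-1 and iff-2. Prep 2 was highest for eif-1, eif-1.A and eif-6.

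The members lie unevenly over the chromosomes, which the symbol rule did not use. By the RefSeq gene table (assembly WBcel235), 17 of the 60 lie on chromosome I (28.3%, against 13.5% of the genes tested) and 3 on the X chromosome (5%, against 14.9%). The 3 are ife-2, ife-4 and eef-1A.2, and of these eef-1A.2 was called. Chromosome V holds 6 (10%, against 25.7%), of which limma called 0, with 2 higher at an unadjusted p under 0.05. The called genes lie on chromosomes I (6), III (6), II (5), IV (4) and X (1). The share of all genes called on each chromosome was not computed, so these counts are not read as a trait of the members. On each chromosome the median of the members lay above that of all its genes, at 0.62 against 0.0455 on I and 0.30 against -0.27 on X.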

How the data were processed

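The authors deposited a table of 20000 spots with a log2 ratio of the 2 channels for each array. How the arrays were scanned, background-corrected, filtered and normalized is not given in the sources used here, nor is the direction of the ratio. Values were missing for 73, 175 and 127 spots in preps 1, 2 and 3. Without intensities, dim or saturated spots were kept. Precision is limited by having 3 arrays.

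Gene names came from the platform annotation, which lists 1 gene for 15655 spots, several for 198 (not used) and none for 4147. Symbols were updated through a RefSeq table (WBcel235), in which all 60 members were found. Where a gene had more than 1 spot, the spots' mean was taken on each array. The mean log2 ratio of each of 15119 genes was tested against 0, two-sided, by lmFit and eBayes of limma 3.58.1 in R 4.3.3, and p-values were adjusted over all of these genes (Benjamini-Hochberg, threshold 0.05). The spread of the single reference RNA does not enter the test. SDs are over the 3 arrays. The script was tested on simulated data. Every member could be named. Values on each array are given for called members, for the 5 highest and 5 lowest, and for all ife-, ifg-, iff-, inf- and eef- genes. The members, lists and tests were chosen with earlier results of these data known. Alternatives changed the centring, scale, print-block position, variance estimate, array weights, missing values, repeated spots, threshold and the preps used. Protein and promoter sequences were not used here.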

Additional observations from a re-analysis of the deposited data

How the results depend on the processing

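No member was called lower under any of the 14 alternatives, which all drew on the same 3 arrays. Of all genes, 4.32% (threshold of 0.01) to 13.4% (threshold of 0.1) were called lower, apart from the unmoderated test. That test called no gene in either direction, so it could not show a lower member. With all 3 arrays as deposited 22 members were called higher. The count was 14 with the variance trend on the mean absolute log2 ratio and 18 with array weights. It was 10 at the threshold of 0.01 (6.3% of all genes) and 8 to 20 with 1 prep left out. It was 0 with the unmoderated one-sample test on the 3 arrays, which called 0 of all genes too. In that test 18 members were higher at an unadjusted p under 0.05, where limma with eBayes gave 34. Of all 15119 genes, 3080 passed at that unadjusted threshold without moderation and 5092 with eBayes, counting both directions. The median of the members ran from 0.40 to 0.67 with 1 prep left out and was 0.57 with print-block centring and 0.61 with each array centred on its median. Of the 31 genes with values on each array by the naming rule, 29 kept their sign under every alternative that measured them. The exceptions were ife-3, at 0.062 with print-block centring, and rars-2, which ran from -0.45 to 0.12 with 1 prep left out and was above 0 without prep 2. The cause was not tested. With the lowest-numbered spot in place of the mean, eif-6 had no value. No paired analysis was possible because all 3 arrays belong to 1 group. Only 3 arrays, without intensities or a dye swap, limit every value.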

Other observations

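A spot listed for both sys-1 and eif-3.C, which was in no test, stood at 1.02 in prep 1, -0.14 in prep 2 and -0.16 in prep 3. The spot listed for both eef-1A genes showed the same order of preps.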
